A study of Homo sapiens with 12 samples.

Results

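Cytosolic heat shock genes, through which human cells keep their proteins folded, were followed here in neuroblastoma cells given Erastin. The members were taken by name from both count tables, which hold 58735 gene rows each (1568 of them repeat a name), and all 10 of 10 were found and passed the filter on low counts in every comparison. They are HSF1, HSPA1A, HSPA1B, HSPA8, HSP90AA1, HSPH1, HSPB1, DNAJB1, DNAJA1 and BAG3. The 12 RNA-seq samples came from 2 established neuroblastoma cell lines, KELLY, in which the MYCN gene is amplified, and SK-N-AS, in which it is not. In each line 3 samples had DMSO, the solvent control, and 3 had Erastin for 24 h, at 1 µM in KELLY and 2 µM in SK-N-AS. Line and dose therefore cannot be told apart. Erastin blocks the cystine/glutamate antiporter system Xc and starts ferroptosis, a cell death by iron-dependent lipid peroxidation. Cells of each line were seeded in triplicate, and where these are wells of a single culture the p-values measure the spread between wells. MYCN lay between 4520 and 6553 CPM (counts scaled to the library's total) in the KELLY libraries and did not exceed 0.413 CPM in SK-N-AS.

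The heat shock response is the transcription program that cells start when cytosolic proteins misfold. HSF1, its main transcription factor, is held inactive in unstressed cells, and on stress it forms trimers, enters the nucleus and binds heat shock elements, which are inverted repeats of the unit nGAAn. Its targets include HSP70 proteins, which bind unfolded stretches of proteins, the HSP40 proteins that load them, nucleotide exchange factors that release the client, HSP90 for late folding steps, and small heat shock proteins that hold aggregating proteins. Oxidants that modify cysteines can start the same program. The comparisons ask whether these genes moved with Erastin in each line and how their control levels differed between the lines.

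RefSeq promoter windows (GRCh38.p14) of 250 bases before to 50 after a transcription start were listed for 9 of the members, with no entry for HSF1. Heat shock elements were searched in them as the letters GAANNTTC and TTCNNGAA, each of which reads the same on both strands. Of the 9 genes with windows, 7 held a match in at least 1 window, against 16.2% of 27305 genes. The stretches before the start are shown because they hold the letters of the element that HSF1 binds, and the capitals mark the matches. HSPA1A and HSPA1B come first, at chr6:31815413-31815468 and chr6:31827609-31827664, both on the plus strand.
HSPA1A: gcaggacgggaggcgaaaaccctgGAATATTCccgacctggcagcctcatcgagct
HSPA1B: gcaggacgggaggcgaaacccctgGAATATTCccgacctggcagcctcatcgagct
HSP90AA1 held 3 matches, 2 of them overlapping, at chr14:102087081-102087156 on the minus strand.
HSP90AA1: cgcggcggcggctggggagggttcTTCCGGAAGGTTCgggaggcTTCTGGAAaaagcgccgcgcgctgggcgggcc
DNAJB1 held a pair of matches before a start, the nearer of which lies at chr19:14518413-14518468 on the minus strand.
DNAJB1: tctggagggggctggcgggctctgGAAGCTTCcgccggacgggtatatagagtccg
HSPB1 held a single match, at chr7:76302467-76302522 on the plus strand.
HSPB1: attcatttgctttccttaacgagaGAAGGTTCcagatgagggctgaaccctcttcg
In HSPA8 the matches lie in exons of other annotated HSPA8 transcripts, and the nearer pair is at chr11:123062171-123062199 on the minus strand.
HSPA8: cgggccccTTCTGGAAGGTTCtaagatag
DNAJA1 held a match before its start at chr9:33025067-33025090 on the plus strand, inside an exon of the neighbouring gene APTX on the other strand.
DNAJA1: gggctccaGAAGATTCcacgagcg
The windows of HSPH1 and BAG3 held neither set of letters. The letters TGATGNAA, taken for the stress factor ATF4 and searched on both strands, were in no window of the 9 members and in 4.46% of all genes. Other letters for ATF4 were not searched. A match describes the letters of a window, not a bound site. The 250 bases before the start of HSPA1A and of HSPA1B were identical at 94.4% of 249 aligned bases.

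Total counts per library ranged from 24169796 to 29835670. Replicates carried unlike trends on gene GC content. The log2 ratio of each library to its line's mean was ranked against GC content over 12633 genes, which are no replicates, and Spearman's coefficient ran from -0.82 in KELLY DMSO 1 to 0.85 in KELLY Erastin 1. In SK-N-AS it ran from -0.72 in DMSO 3 to 0.75 in DMSO 1. The members differ in GC content, so changes are given as deposited and also with the GC trend of each library removed. The coefficient of variation between samples of a group was 0.246 in KELLY and 0.105 in SK-N-AS, and 0.143 and 0.0579 with the trend removed. SK-N-AS libraries also held PTPRC, a leukocyte gene, with the summed blood markers at 454 to 620 CPM, while CD3E and LYZ, which mark T cells and myeloid cells, were at 0; in KELLY the same 9 markers summed to at most 15.4 CPM. The part of these differences in the results was not tested.

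None of the 10 members passed the test for a change with Erastin in KELLY, where edgeR's quasi-likelihood test called 1 of 16258 genes (0.00615%) at a Benjamini-Hochberg adjusted p under 0.05. Of the 10, 6 were lower and 4 higher, with a median log2 fold change of -0.027 beside 0.0052 over all genes tested, of which 49.5% were lower. No member reached an unadjusted p under 0.05, as 2.64% of all genes did, or the study's threshold of an unadjusted p of at most 0.05 with a 1.5-fold change, as 2.03% did. DESeq2 called no member either. The 95% confidence intervals excluded a doubling for 8 of the 10, all but HSPA1A and HSPA1B, and a halving for all 10. Of the 16258 genes tested, 12338 had intervals that excluded a doubling and 13317 a halving. In SK-N-AS none of the 10 passed either, where 106 of 16095 genes (0.659%) did. Of the 10, 9 were lower, with a median of -0.13 beside -0.0089 over all genes, of which 52.4% were lower. All 10 intervals excluded both a doubling and a halving. Of the 16095 genes tested there, 14838 had intervals that excluded a doubling and 14815 a halving. The members HSPA8, HSP90AA1, HSPH1 and HSPB1 (4 of 10) had an unadjusted p under 0.05 in SK-N-AS, as 8.77% of all genes did, and none reached the threshold of the methods, which 2.67% did.

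**Figure D1:**
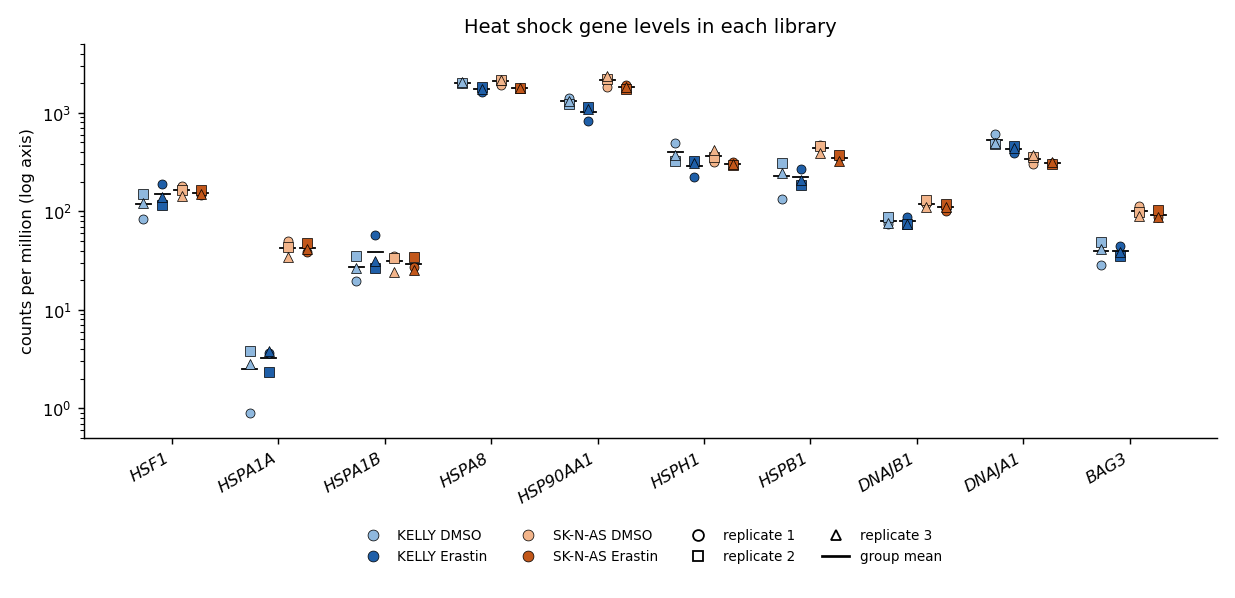
CPM (log axis) of the 10 heat shock genes in each of the 12 libraries, with symbols for the replicate number, colours for the 4 groups and a bar at each group mean (n = 3). HSPA8 and HSP90AA1 stand highest, and HSPA1A is the member whose KELLY libraries (0.894 to 3.86 CPM) lie furthest below the SK-N-AS libraries (34.1 to 49.9 CPM).

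HSF1, the regulator itself, had 83.8, 149 and 122 CPM in the KELLY DMSO samples and 190, 117 and 141 CPM with Erastin. The groups overlapped, with the lowest value in DMSO 1 and the highest in Erastin 1. HSF1 had a log2 fold change of 0.34 ± 0.26 (SE, n = 3 against 3, adjusted p = 0.770), and -0.069 ± 0.084 with the GC trend removed. In SK-N-AS HSF1 had 182, 167 and 142 CPM with DMSO and 148, 163 and 148 CPM with Erastin, a log2 fold change of -0.083 ± 0.099 (adjusted p = 0.890). HSF1 is regulated mostly at the protein, so its RNA level is no measure of its activity.

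HSPA1A and HSPA1B encode the stress-inducible HSP70 and lie next to each other on chromosome 6, at chr6:31815543-31817946 and chr6:31827738-31830254 on the plus strand (GRCh38, GENCODE 44). Of the 150-base stretches of the longest HSPA1A transcript, 69.6% also occur in HSPA1B transcripts, and 66.1% of those of HSPA1B occur in HSPA1A. Reads from these stretches fit both genes, and how the counting treated them is not given in the sources used here, so the level of each gene alone is uncertain. HSPA1A had 23, 95 and 80 counts in KELLY with DMSO and 88, 61 and 106 counts with Erastin, which is 0.894, 3.86 and 2.80 CPM against 3.61, 2.36 and 3.84 CPM. These groups overlapped, and the log2 fold change of 0.38 had a 95% confidence interval from -0.73 to 1.49 (adjusted p = 0.778), and it was 0.16 ± 0.33 with the GC trend removed. HSPA1B had 19.7, 35.1 and 26.4 CPM in KELLY with DMSO and 57.5, 26.5 and 31.6 CPM with Erastin. The single high value was Erastin 1, the library with the strongest GC trend. The log2 fold change of HSPA1B was 0.51 ± 0.34 (adjusted p = 0.770) and 0.20 ± 0.13 with that trend removed. Neither gene was called without that library and KELLY DMSO 1. These libraries were chosen after seeing the data and the groups were then smaller, so the lack of a call adds little.

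In SK-N-AS HSPA1A had 49.9, 43.7 and 34.1 CPM with DMSO and 38.8, 47.96 and 41.7 CPM with Erastin, a log2 fold change of 0.018 ± 0.13 (adjusted p = 0.985). HSPA1B had 35.2, 33.3 and 24.4 CPM with DMSO and 27.5, 34.3 and 25.5 CPM with Erastin, a log2 fold change of -0.080 ± 0.15 (adjusted p = 0.936). The groups of both genes overlapped. With the counts of the pair summed into a single feature, the log2 fold change was 0.50 in KELLY (adjusted p = 0.770) and -0.018 in SK-N-AS (adjusted p = 0.985). HSPA6, a strictly inducible HSP70 gene named after its values were seen, had at most 4 counts in any KELLY library, 5 to 9 counts in SK-N-AS with DMSO and 9 to 18 with Erastin, too few for it to enter the test.

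HSPA8, the constitutive HSP70 that folds new proteins in unstressed cells, had 2001, 2018 and 2046 CPM in KELLY with DMSO and 1632, 1836 and 1765 CPM with Erastin. Every Erastin sample lay under every DMSO sample. The log2 fold change was -0.21 ± 0.11 (adjusted p = 0.770), or -0.16 ± 0.083 with the GC trend removed. In SK-N-AS HSPA8 had 1936, 2167 and 2144 CPM with DMSO and 1786, 1780 and 1767 CPM with Erastin, again with no overlap. The log2 fold change was -0.22 ± 0.070 (adjusted p = 0.308). Once the GC trend was removed, HSPA8 passed the test in that line at -0.23 ± 0.048 (adjusted p = 0.00846). It also passed without SK-N-AS DMSO 1, at -0.27 (adjusted p = 0.0466), where 155 genes were called against 106 in the main fit. HSPA8 was called in 3 of 17 alternative fits.

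HSP90AA1 encodes the stress-responsive cytosolic HSP90, the chaperone of kinases and steroid receptors. It had 1404, 1233 and 1313 CPM in KELLY with DMSO and 822, 1149 and 1104 CPM with Erastin, with no overlap and a log2 fold change of -0.36 ± 0.16 (adjusted p = 0.770). In SK-N-AS it had 1844, 2191 and 2366 CPM with DMSO and 1906, 1764 and 1850 CPM with Erastin. There DMSO 1 lay within the Erastin range, and the log2 fold change was -0.20 ± 0.091 (adjusted p = 0.545). Removing the GC trend left HSP90AA1 short of the threshold, at -0.30 ± 0.100 in KELLY (adjusted p = 0.637) and -0.22 ± 0.063 in SK-N-AS (adjusted p = 0.0539). In SK-N-AS it was called in 1 of 17 alternative fits, with the replicate number as a block and the GC trend removed (adjusted p = 0.00763).

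HSPH1, the HSP110 that exchanges the nucleotide of HSP70, had 490, 326 and 372 CPM in KELLY with DMSO and 225, 327 and 308 CPM with Erastin. DMSO 2 and Erastin 2 were nearly equal, and the log2 fold change was -0.46 ± 0.21 (adjusted p = 0.770). In SK-N-AS HSPH1 had 320, 357 and 418 CPM with DMSO and 314, 294 and 302 CPM with Erastin. The groups did not overlap there, and the log2 fold change was -0.26 ± 0.097 (adjusted p = 0.433). Once the GC trend was removed, HSPH1 passed the test in that line at -0.26 ± 0.045 (adjusted p = 0.00227), and had -0.25 ± 0.074 in KELLY (adjusted p = 0.587). HSPH1 was called in 2 of 17 alternative fits in SK-N-AS.

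HSPB1, or HSP27, is a small heat shock protein that holds unfolding proteins without using ATP and is known to protect cells from oxidants. It had 133, 309 and 247 CPM in KELLY with DMSO and 270, 185 and 207 CPM with Erastin. The DMSO samples enclosed the Erastin samples, and the log2 fold change was -0.051 ± 0.30 (adjusted p = 0.951). With the GC trend removed the log2 fold change in KELLY was -0.40 ± 0.11 (adjusted p = 0.552). In SK-N-AS HSPB1 had 471, 457 and 388 CPM with DMSO and 353, 374 and 326 CPM with Erastin, with no overlap. The log2 fold change was -0.31 ± 0.091 (adjusted p = 0.228), and it passed the test with the GC trend removed, at -0.25 ± 0.058 (adjusted p = 0.0153). It also passed without SK-N-AS DMSO 3, at -0.39 (adjusted p = 0.00185), where 855 genes were called against 106 in the main fit. HSPB1 was called in 4 of 17 alternative fits.

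Of the HSP40 members, DNAJB1, the inducible one that delivers clients to HSP70, had 74.3, 86.9 and 76.5 CPM in KELLY with DMSO and 87.6, 74.9 and 75.1 CPM with Erastin. Its log2 fold change was 0.0031 ± 0.15 (adjusted p = 0.994), and -0.23 ± 0.12 with the GC trend removed (adjusted p = 0.702). In SK-N-AS DNAJB1 had 118, 130 and 111 CPM with DMSO and 100.5, 120 and 110 CPM with Erastin, a log2 fold change of -0.11 ± 0.094 (adjusted p = 0.837). The groups overlapped in both lines. DNAJA1, a farnesylated HSP40, had 612, 488 and 494 CPM in KELLY with DMSO and 390, 460 and 435 CPM with Erastin. Its KELLY groups did not overlap, with a log2 fold change of -0.31 ± 0.15 (adjusted p = 0.770) that was -0.12 ± 0.096 with the GC trend removed. In SK-N-AS DNAJA1 had 300, 357 and 370 CPM with DMSO and 311, 302 and 314 CPM with Erastin, a log2 fold change of -0.14 ± 0.089 (adjusted p = 0.753). It was called there in 1 of 17 alternative fits, with the replicate number as a block and the GC trend removed (adjusted p = 0.0189).

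BAG3, the co-chaperone that links HSP70 to small heat shock proteins and to selective autophagy, had 28.5, 48.7 and 41.2 CPM in KELLY with DMSO and 44.3, 35.0 and 38.6 CPM with Erastin. BAG3 had a log2 fold change of -0.0023 ± 0.22 (adjusted p = 0.997), and -0.22 ± 0.092 with the GC trend removed (adjusted p = 0.702). In SK-N-AS BAG3 had 114, 99.1 and 88.7 CPM with DMSO and 88.3, 102 and 86.7 CPM with Erastin, a log2 fold change of -0.12 ± 0.11 (adjusted p = 0.852). The groups overlapped in both lines.

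**Figure D2:**
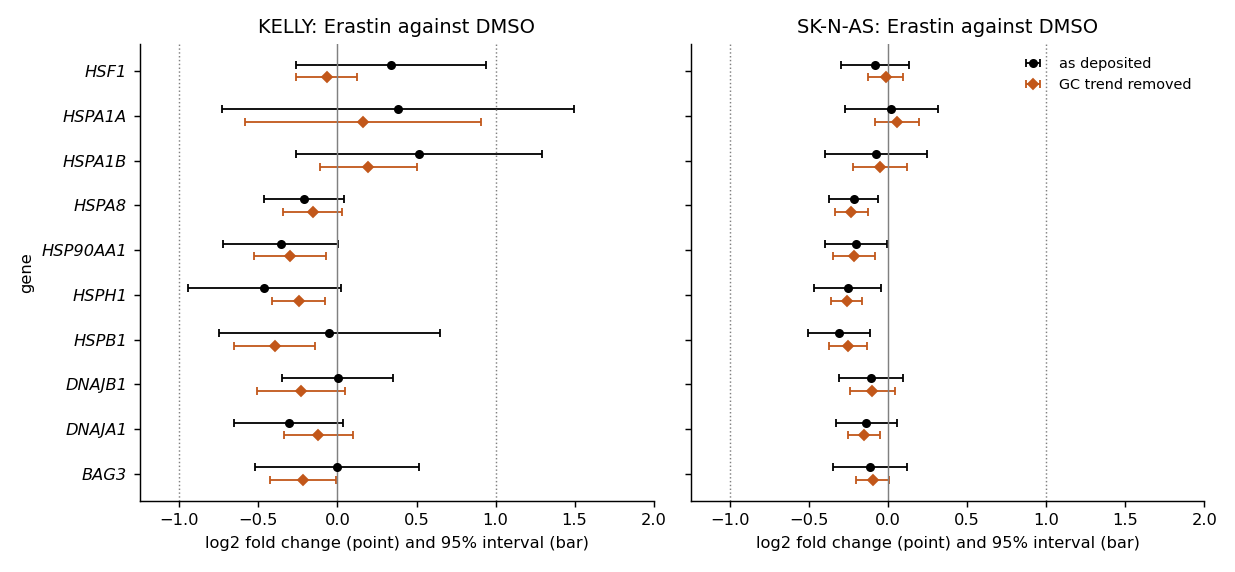
Log2 fold change of Erastin against DMSO (points) with the 95% confidence interval (bars) for the 10 genes in KELLY (left) and SK-N-AS (right), as deposited (black) and with each library's GC trend removed (orange), n = 3 against 3. Dotted lines mark a halving and a doubling; the SK-N-AS intervals lie between them for all 10 genes, and in KELLY as deposited the intervals of HSPA1A and HSPA1B cross the doubling line.

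In each line 3 members had Erastin samples that all lay under all DMSO samples. These were HSPA8, HSP90AA1 and DNAJA1 in KELLY, where 4.34% of all genes lay so, and HSPA8, HSPH1 and HSPB1 in SK-N-AS, where 7.81% did. HSPA8 was the member in both sets. With the GC trend removed, 8 of 10 members were lower in KELLY (median -0.19), beside 53.4% of all genes (median -0.017). None of the members passed the test there, which 0.172% of all genes did. Of the 10 members 4, HSP90AA1, HSPH1, HSPB1 and BAG3, were lower with an unadjusted p under 0.05 there, as 3.82% of all genes were. The same correction in SK-N-AS left 3 members, HSPA8, HSPH1 and HSPB1, called lower, as 3.39% of all genes were. There 9 of 10 were lower (median -0.13), beside 51.4% of all genes (median -0.0061). For the members of SK-N-AS not yet given with that correction, the log2 fold changes were -0.017 ± 0.051 for HSF1, 0.055 ± 0.065 for HSPA1A, -0.050 ± 0.081 for HSPA1B, -0.100 ± 0.068 for DNAJB1, -0.15 ± 0.048 for DNAJA1 and -0.098 ± 0.050 for BAG3. The levels of HSPA8, HSPH1 and HSPB1 with Erastin were 0.860, 0.837 and 0.806 times those with DMSO as deposited.

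The change with Erastin was not shown to differ between the lines for any member. The interaction of line and treatment, written as the SK-N-AS change minus the KELLY change, was called for none of the 10, with 0.00548% of 18239 genes called and no member at an unadjusted p under 0.05 (4.25% of all genes). With the GC trend removed none was called either, where 0.0658% of all genes were. Adjusted p ranged from 0.811 for HSF1 and HSPA1B to 0.996 for HSPA8. HSPA1B had the largest difference, -0.60 with a 95% confidence interval from -1.47 to 0.28. HSPA8 had a difference of -0.015 with an interval from -0.27 to 0.23.

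**Figure D3:**
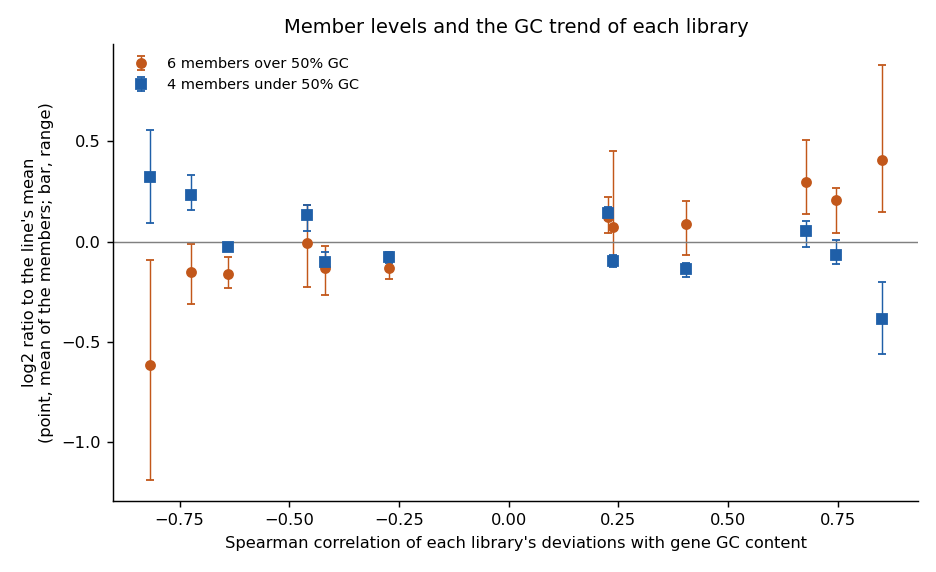
Mean log2 ratio to the line's mean (points) and range (bars) of the 6 members over 50% GC and of the 4 members under 50% GC in each of the 12 libraries, against that library's Spearman correlation with gene GC content. The members over 50% GC lie low in KELLY DMSO 1 (correlation -0.82) and high in KELLY Erastin 1 (correlation 0.85), and the members under 50% GC lie the other way round.

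The members fell into 2 sets by their GC content, and the levels of most varied in those sets across libraries. HSF1 (64.7% GC), HSPB1 (64.3%), HSPA1A (59.8%), HSPA1B (58.8%), BAG3 (56.9%) and DNAJB1 (56.3%) formed the set over 50%. HSPA8 (45.7%), HSP90AA1 (45.2%), DNAJA1 (40.8%) and HSPH1 (39.6%) formed the other. Over the 12 samples, centred on each line's mean, Pearson's correlation was 0.96 between HSPH1 and DNAJA1 and 0.96 between HSF1 and HSPA1B, but -0.85 between HSF1 and HSPH1. The sets were less opposed for HSPA8, with -0.45 to 0.14 to the members over 50%, and for DNAJB1, with -0.35 to 0.14 to the other set. They were also less opposed for HSPB1, with -0.48 to 0.12 to the members under 50%, and for BAG3, with -0.58 to -0.052. These pairs share libraries and their GC trends, so the correlations describe the samples only. The genes most like the mean of the 9 chaperones and co-chaperones over the same 12 samples, among 11652 genes, were LRRC59 (Pearson's correlation 0.94), RAE1, NEURL1B, RBPMS2 and BIRC5 (all 0.92). Some of the 9 varied in opposite directions (-0.84 between HSPA1B and HSPH1), so their mean need not follow any of them. These genes are the highest of 11652 correlations, and none was tested.

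Control levels differed between the lines for 6 of the 10 members, where 61.3% of 17089 genes did. In KELLY 5 were lower than in SK-N-AS, namely HSPA1A, BAG3, HSPB1, HSP90AA1 and DNAJB1, where 30.3% of all genes were, and DNAJA1 was higher, where 30.9% were. The DMSO samples of the lines did not overlap for these 6, as they did not for 66.3% of all genes. The median log2 difference of the members, KELLY against SK-N-AS, was -0.52, and 0.024 over all genes. These 6 kept their call under every other normalization, filter, tool and left-out library that was tried. At the threshold of the methods, which 57.6% of all genes passed, DNAJB1 fell just short of the 1.5-fold limit.

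HSPA1A differed most, with 0.894 to 3.86 CPM in the KELLY DMSO samples and 34.1 to 49.9 CPM in the SK-N-AS DMSO samples. Its log2 difference was -4.07 ± 0.44 (SE, adjusted p = 5.23e-05), or 16.8-fold lower in KELLY. HSPA1B, which lies beside it, had overlapping values in the lines and a log2 difference of -0.18 ± 0.24 (adjusted p = 0.532). With the counts of the pair summed, KELLY was lower by a log2 difference of -1.30 (adjusted p = 0.00168). HSPA1A made up 7.94% ± 3.12 (SD, n = 3) of the counts of the pair in KELLY with DMSO and 57.9% ± 1.04 (SD, n = 3) in SK-N-AS with DMSO. With Erastin the shares were 8.31% ± 2.46 (SD, n = 3) and 59.6% ± 2.11 (SD, n = 3). The lowest share in KELLY was 23 of 530 counts in DMSO 1, or 4.34% with an exact 95% binomial interval from 2.77% to 6.44%, and the highest was 10.8% in Erastin 3 (8.94% to 12.9%). All KELLY shares lay under all SK-N-AS shares, whose range was 56.7% to 62.1%. These intervals cover counting error only, and whether the share reflects transcription, the reads that fit both genes or sequence differences between the lines was not tested.

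**Figure D4:**
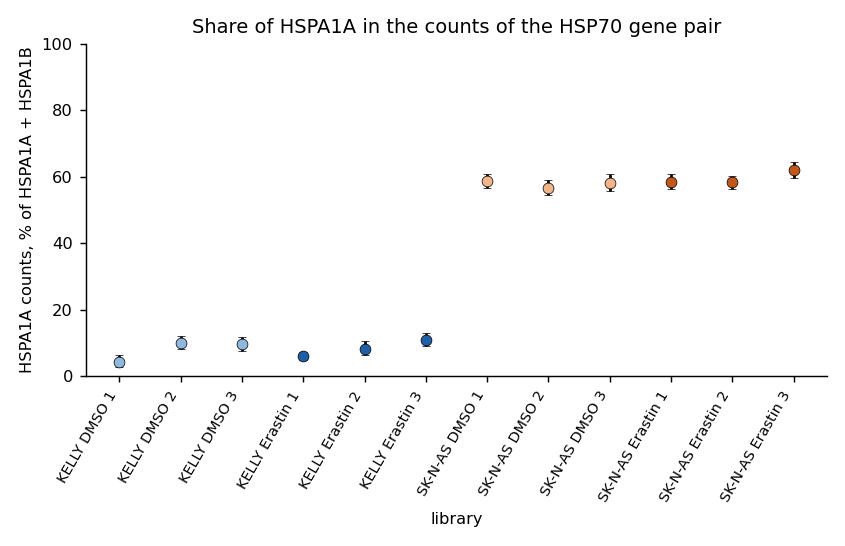
Share of HSPA1A in the summed counts of HSPA1A and HSPA1B, in percent, for each of the 12 libraries, with exact 95% binomial intervals that cover counting error only. The 6 KELLY libraries lie between 4.34% and 10.8% and the 6 SK-N-AS libraries between 56.7% and 62.1%, with DMSO and Erastin samples side by side in each line.

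BAG3 was next, with 39.5 ± 10.2 CPM (SD, n = 3) in KELLY and 101 ± 12.9 CPM (SD, n = 3) in SK-N-AS, a log2 difference of -1.34 ± 0.21 (adjusted p = 0.000554). HSPB1 had a log2 difference of -0.92 ± 0.27 (adjusted p = 0.0158), or 1.89-fold lower in KELLY. HSP90AA1 was 1.60-fold lower in KELLY, at -0.68 ± 0.13 (adjusted p = 0.00159). DNAJB1 had a log2 difference of -0.58 ± 0.13 (adjusted p = 0.00506). DNAJA1 alone was called higher in KELLY, at 0.65 ± 0.14 (adjusted p = 0.00411) or 1.57-fold. The HSP40 members thus differed between the lines in opposite directions.

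HSPA8 and HSPH1 had overlapping control levels and small differences, -0.029 with a 95% confidence interval from -0.27 to 0.21 and 0.13 with an interval from -0.27 to 0.54. HSF1 had a log2 difference of -0.45 ± 0.21 (adjusted p = 0.0930) with overlapping groups. It was called lower in KELLY with the GC trend removed, at -0.41 ± 0.073 (adjusted p = 0.000493), where 35.5% of all genes were called lower. HSF1 was also called without KELLY DMSO 2, at -0.65 (adjusted p = 0.0160), and with no filter on low counts, at -0.47 (adjusted p = 0.0366). It was called in 3 of 17 alternative fits.

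**Figure D5:**
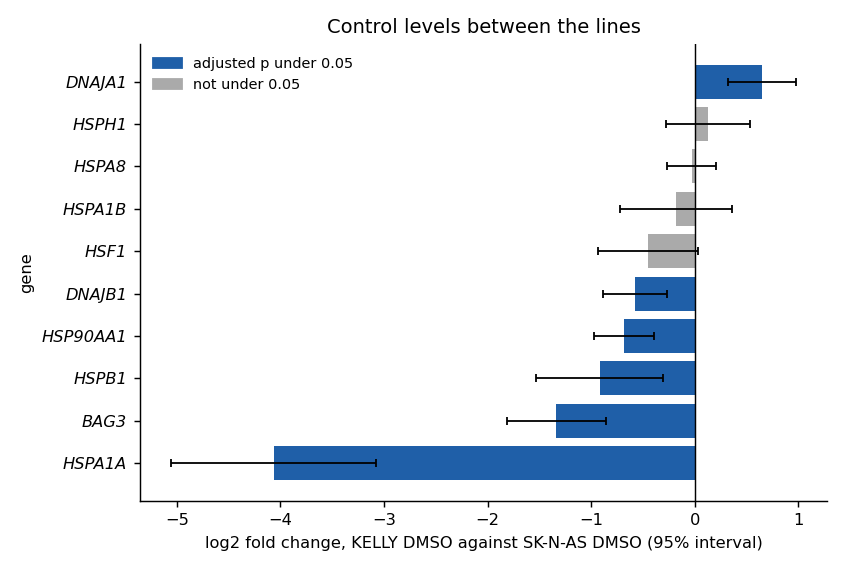
Log2 difference of KELLY DMSO against SK-N-AS DMSO (bars) with the 95% confidence interval (lines) for the 10 genes, n = 3 against 3, with the genes at an adjusted p under 0.05 in blue. HSPA1A stands at -4.07, 4 further genes are called lower in KELLY, and DNAJA1 is called higher.

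Per kilobase of annotated exon, HSPA8 had the highest control level of the members in both lines, 417 ± 4.74 CPM per kb (SD, n = 3) in KELLY and 430 ± 26.2 CPM per kb (SD, n = 3) in SK-N-AS. In KELLY HSP90AA1 followed at 258 CPM per kb, then DNAJA1 at 199, HSPB1 at 141, HSPH1 at 47.2, HSF1 at 22.3, BAG3 at 14.4, HSPA1B at 10.8, DNAJB1 at 9.68 and HSPA1A at 1.05 CPM per kb. The libraries of DNAJA1 and HSPB1 overlapped in that order, as did those of neighbours from HSF1 to DNAJB1. In SK-N-AS HSP90AA1 followed at 419 CPM per kb, overlapping HSPA8, then HSPB1 at 270, DNAJA1 at 128, HSPH1 at 43.5, BAG3 at 36.8, HSF1 at 30.8, HSPA1A at 17.7, DNAJB1 at 14.6 and HSPA1B at 12.3 CPM per kb. There the neighbours from HSPH1 to HSF1 and from HSPA1A to HSPA1B overlapped. With the length of the longest transcript in place of all exons, the top 5 ranks stayed in both lines and some of the lower ones changed, with DNAJB1 moving up from 9 to 7 in KELLY. Exons of DNAJB1, HSF1, HSP90AA1 and HSPA8 overlap annotated genes on the opposite strand, among them TECR, DGAT1 and WDR20, and whether the counting used strand is not given in the sources used here. On the same strand, exons of HSPA1B overlap those of the gene model ENSG00000285565 and exons of HSPA8 overlap SNORD14C and SNORD14D.

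Beside the members, 62 other genes of cytosolic folding were listed, namely HSF regulators, other HSP70, HSP40, BAG and small heat shock proteins, HSP90 with its co-chaperones, and the TRiC chaperonin that folds actin and tubulin. In KELLY 54 of the 62 were tested and none was called with Erastin or had an unadjusted p under 0.05, with 36 lower, 18 higher and a median of -0.091. Over all genes tested in that line 49.5% were lower. The smallest p values in KELLY belonged to TCP1 and CCT4, subunits of TRiC, at -0.25 ± 0.15 and -0.34 ± 0.22, and to BAG1, a nucleotide exchange factor of HSP70, at 0.34 ± 0.22 (all with adjusted p = 0.770). In SK-N-AS 55 were tested and none was called, 3 had an unadjusted p under 0.05 (8.77% of all genes), with 37 lower, 18 higher and a median of -0.093. Over all genes tested in SK-N-AS 52.4% were lower. The smallest p values there belonged to FKBP4, a co-chaperone of HSP90 at steroid receptors, at -0.33 ± 0.081 (adjusted p = 0.126), to HSPB7, a small heat shock protein, at -0.73 ± 0.21 (adjusted p = 0.212, past the threshold of the methods) and to IER5, a cofactor of HSF1, at -0.30 ± 0.13 (adjusted p = 0.545). FKBP4 passed with DESeq2 (adjusted p = 0.0355) and with the GC trend removed (adjusted p = 0.000190), and with that trend removed 5 of the 55 were called lower and 1 higher, where 3.39% of all genes were called lower and 395 of 16095 higher. Without SK-N-AS DMSO 3, where 855 genes were called in all, FKBP4 (adjusted p = 0.00120) and IER5 (adjusted p = 0.00489) were among them. Of the 9 TRiC subunits, 8 had lower values in SK-N-AS with Erastin, where 52.4% of all genes were lower, and none was called as deposited. With the GC trend removed 1 of the 9 was called lower, as 3.39% of all genes were. At an unadjusted p under 0.05 there were then 8 of the 9, and 3193 of the 16095 genes tested.

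The chaperones of other compartments gave no call with Erastin as deposited either. Medians were 0.066 in KELLY and 0.0061 in SK-N-AS over 20 ER chaperones, and 0.035 and -0.033 over 17 mitochondrial ones. At an unadjusted p under 0.05 there were 1 ER and 3 mitochondrial genes in SK-N-AS and none in KELLY, beside 8.77% and 2.64% of all genes. With the GC trend removed 2 mitochondrial genes were called lower and 1 higher in SK-N-AS. Over all genes there 3.39% were called lower and 395 of 16095 higher. HSPA5, the ER HSP70, had log2 fold changes of -0.079 ± 0.12 in KELLY (adjusted p = 0.804) and -0.034 ± 0.071 in SK-N-AS (adjusted p = 0.945). HSPD1, the mitochondrial HSP60, had -0.14 ± 0.13 in KELLY (adjusted p = 0.770) and -0.21 ± 0.078 in SK-N-AS (adjusted p = 0.407), and passed there once the GC trend was removed (adjusted p = 0.0147). Between the control samples, 14 of the 55 other cytosolic genes tested were called higher in KELLY and 17 lower, where 30.9% and 30.3% of all genes were called, and 13 of the 20 ER chaperones were called lower and none higher.

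Among the other pathway genes called between the control samples, the 2 with the largest difference in each direction were HSPB6 and DNAJA4, lower in KELLY, and HSPB8 and FKBP5, higher. HSPB6 had 2 to 3 counts in the KELLY DMSO libraries and 1546 to 1765 in those of SK-N-AS (adjusted p = 4.99e-08). HSPB8, the small heat shock partner of BAG3, had 32 to 63 counts in KELLY and 1 to 4 in SK-N-AS (adjusted p = 0.000108). DNAJA4, an HSP40, was lower in KELLY by a log2 difference of -3.53 ± 0.23 (adjusted p = 2.61e-06), and FKBP5, a co-chaperone of HSP90 at the glucocorticoid receptor, was higher by 1.91 ± 0.15 (adjusted p = 7.79e-06).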

How the data were processed

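Paired-end reads of 150 bases were mapped by the authors to GRCh38 and assigned to GENCODE genes by HTSeq, and the deposited values are raw counts per gene with no normalization (processing notes list Trimmomatic, HTSeq and DESeq2). The aligner is not given in the sources used here. No column of another sample was present.

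Counts were fitted in R 4.3.3 with edgeR 4.0.16 (filterByExpr, TMM, quasi-likelihood test, Benjamini-Hochberg over all genes tested), for each comparison on its own samples and for the interaction on all 12. Intervals are at 95%. CPM used TMM factors over 12 samples. The GC correction used loess (span 0.5, degree 2) of each library's log2 ratio as an offset, with GENCODE 44. Alternatives used DESeq2 1.42.0 and limma 3.58.1. All members were named. Of the other pathway genes those called were named, or the 3 with the smallest p where none was, and for the control comparison the 2 furthest each way, with HSPA5, HSPD1 and the 5 genes most alike. Members and lists were chosen with earlier results of these data known. Fits were also run on simulated counts drawn without a GC trend, so those runs do not test how the trend affects the calls. At most 229 of 19923 gene rows held equal counts in any pair of libraries.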

Additional observations from a re-analysis of the deposited data

How the results depend on the processing

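Across the alternatives no member was called with Erastin in KELLY or in the interaction, and the 6 members called between the control samples kept their call except DNAJB1 at the threshold of the methods. Counts of all genes called moved widely, and the cause was not tested.

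In KELLY 1 gene was called, against 31 with DESeq2, 19 with no filter, 28 with the GC trend removed, 17 with all 12 samples in 1 fit, 330 at the threshold of the methods, 23 without KELLY DMSO 1 and KELLY Erastin 1 together (chosen after seeing the data) and 0 to 2 with a single replicate left out. In SK-N-AS 106 were called, against 223, 265, 941, 46 and 429 under the first 5 of these. Leaving out a replicate in SK-N-AS gave 53 to 855 genes and 0 to 1 members, with the highest count without DMSO 3 and HSPA8 called without DMSO 1 (adjusted p = 0.0466). With the GC trend removed 3 members were called in SK-N-AS. For the interaction 1 gene was called, against 12 with DESeq2, 8 with no filter, 12 with the GC trend removed, 644 at the threshold of the methods, 3 without the 2 KELLY libraries and 1 to 3 with a replicate left out.

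Whether same-numbered samples pair is not settled by these values in either line, because the deviations compared still held each library's GC trend. That trend was opposite in KELLY DMSO 1 and Erastin 1 (-0.82 and 0.85) and in KELLY DMSO 2 and Erastin 2 (0.68 and -0.64). Correlations of the deviations of same-numbered samples were -0.80, -0.83 and -0.16 in KELLY, where 0 of 6 samples correlated best with their own number. In SK-N-AS they were -0.12, 0.21 and 0.41, where 3 of 6 did. With the replicate number as a block, 0 genes were called in KELLY, 308 genes and 1 member (HSPB1) in SK-N-AS and 0 in the interaction. With the block and the GC trend removed, 5 genes were called in KELLY, 1584 of 16095 in SK-N-AS and 2 in the interaction. Those in SK-N-AS included 5 of the 10 members, HSPA8, HSP90AA1, HSPH1, HSPB1 and DNAJA1, all lower with Erastin.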
